A study of Mus musculus with 12 samples.

Results

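The 10 acute-phase reactants described here are the serum amyloid A genes Saa1, Saa2 and Saa3, the orosomucoid genes Orm1, Orm2 and Orm3, lipocalin 2 (Lcn2), haptoglobin (Hp), hemopexin (Hpx) and the LPS binding protein gene Lbp. They were chosen by name: every transcript of the deposited protein-coding table that GENCODE M21 assigns to one of these genes was taken, and the FPKM of the transcripts of a gene (a fragment number scaled to transcript length and to library size) were added up. They made up 10 of 14188 genes and 16 of 29883 transcripts. Liver RNA came from 12 male mice, 6 of the PZH group and 6 controls. All 12 were injected into the peritoneum with CCl4 mixed with corn oil, a solvent that injures hepatocytes and brings on fibrosis, at 10 µl/g and 2 times per week from an age of 6 weeks. Mice of the PZH group were also given PZH (Pien Tze Huang, a herbal remedy of traditional Chinese medicine) into the stomach each day at 0.25 mg/g, mice of the control group were given water the same way, and all were killed in week 8. The strain label reads C57BL/8, while the methods name C57BL/6J. Livers without CCl4 were not analysed here, so each level in the PZH group is set against an injured liver and not against a healthy one.

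The acute-phase response is the change in the proteins that the liver secretes after injury or infection. Cytokines such as IL-6, IL-1 and TNF act on hepatocytes through STAT3, NF-kB and the C/EBP factors, and the output of positive reactants, the serum amyloids foremost, rises while that of negative reactants such as albumin declines. The members scavenge or carry small ligands: SAA proteins travel on HDL, orosomucoids bind basic drugs and lipids, lipocalin 2 holds the siderophores by which bacteria take up iron, LBP passes bacterial lipopolysaccharide to CD14, haptoglobin captures free hemoglobin and hemopexin captures heme.

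From the steps between low FPKM values, the depth of a mouse was put between 26.8 M and 42.7 M fragments. This is a rough estimate, because the step was searched within set bounds and only 8.97% to 15.69% of low values lay on whole steps. The precision of each value below is the spread between mice. The mean correlation of a mouse with the other mice of its group over all genes was 0.978 to 0.982 in 11 mice and 0.973 in PZH mouse 1. That mouse stood apart from the other PZH mice and also had the greatest estimated depth and the highest sum of FPKM. Without PZH mouse 1, 8 of the 10 members were called for level as with it. The labels give no batch. The hepatocyte marker Alb (albumin) lay between 18015 and 46362 FPKM in all 12 livers. Because whole liver was sequenced, fewer cells of a type and less RNA per cell cannot be told apart in any of the values below.

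All 10 reactants had a lower mean level in the PZH group, and 8 of them fell by the test over all genes (limma on log2(FPKM + 1) with Benjamini-Hochberg adjustment at 0.05). These were Saa1, Saa2, Orm1, Orm2, Lcn2, Hp, Hpx and Lbp. Over all 14188 genes the same call was made in the lower direction for 32.1%, and in either direction for 44.8%, so the count alone says little, and the sizes set the members further apart. The median difference of the members was -1.26 on the log2 scale against -0.11 for all genes. With the 2-fold change and unadjusted P of 0.05 that the study used, 6 members were called, Saa1, Saa2, Orm2, Lcn2, Hp and Lbp, against 2.5% of all genes in the lower direction and 4.02% in either. The study applied these criteria to transcripts with a test it does not name, while here they were applied to gene FPKM with the limma P. For 4 members, Orm2, Lcn2, Hpx and Lbp, the values of the PZH group all lay below those of the control group, which held for 17.9% of all genes (24.3% in either direction). Added up, the 10 reactants made 0.985% ± 0.0815 of the protein-coding FPKM of the PZH mice and 2.19% ± 1.07 of that of the control mice (SD, n = 6 each).

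**Figure D1:**
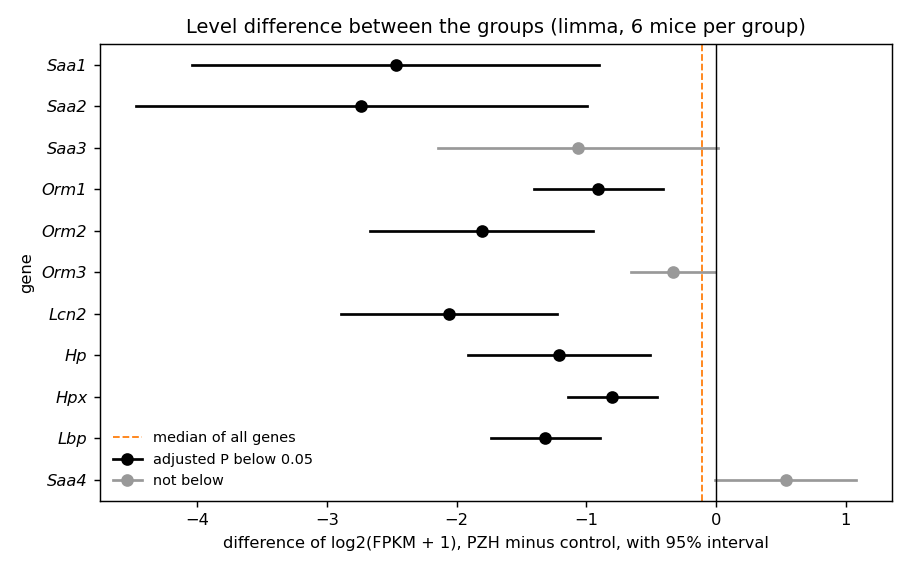
Difference of log2(FPKM + 1) between the groups (x axis, PZH minus control, with 95% limma intervals) for each of the 10 reactants and for Saa4 (y axis). The intervals of the 8 black members lie left of 0, those in gray did not pass the adjusted test, and the dashed line marks the median of all genes at -0.11.

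Saa1 and Saa2 had the largest differences of the 10. Saa1 (ENSMUSG00000074115, GRCm38 chr7:46740497-46742980, minus strand) ranged from 10.6 to 34.8 FPKM with a median of 18.8 in the PZH group, and from 16.8 to 893 FPKM with a median of 120 in the control group. The ranges overlapped only through control mouse 2 at 16.8 FPKM, and control mouse 6 at 38.7 FPKM lay just above the highest PZH mouse. Its median was 6.39-fold higher in the control group, and its level fell by 2.47 on the log2 scale in the PZH group (SE 0.73, limma adjusted p = 0.0145). Saa2 (ENSMUSG00000057465, chr7:46751790-46754313, plus strand) ranged from 3.08 to 10.2 FPKM with a median of 5.69 in the PZH group, and from 6.61 to 494 FPKM with a median of 49.8 in the control group. Here 4 of the 6 control mice lay above every PZH mouse, and control mice 2 and 6 lay within the PZH range. Saa2 fell by 2.73 on the log2 scale (SE 0.80, limma adjusted p = 0.0145).

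Saa3, which macrophages and adipocytes also express, did not pass the adjusted test. Saa3 (ENSMUSG00000040026, chr7:46711998-46715700, minus strand) ranged from 9.63 to 22.2 FPKM with a median of 16.8 in the PZH group, and from 13.2 to 193 FPKM with a median of 29.6 in the control group. The groups overlapped through control mice 2 and 6, and the other 4 control mice lay above every PZH mouse. The difference was -1.06 on the log2 scale (95% interval -2.14 to 0.02, limma adjusted p = 0.102). It was -0.57 without control mouse 4 (adjusted p = 0.114), and -1.33 without control mouse 2, where it passed (adjusted p = 0.0426). Saa4, the constitutive member of the family, lies between Saa3 and Saa1 on chromosome 7 and is not one of the 10. Its mean was 69.1 FPKM ± 15.4 with PZH and 50.3 ± 24.6 without (SD, n = 6), a difference of 0.54 on the log2 scale (limma adjusted p = 0.102). The Saa4 difference passed without control mouse 4 (0.75, limma adjusted p = 0.00753), with a median-ratio scale factor per mouse (0.73, adjusted p = 0.0327) and with the mouse number as a block (adjusted p = 0.0307).

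The Saa genes are near copies of each other, and the first 90 coding bases, from the start codon through the signal peptide into the mature protein, are shown because reads of one copy may be assigned to another. Capitals mark the bases that differ from Saa1 at the same position, compared without gaps, in the GENCODE M21 transcripts.
Saa1: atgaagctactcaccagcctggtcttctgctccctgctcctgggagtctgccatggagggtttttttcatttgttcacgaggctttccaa
Saa2: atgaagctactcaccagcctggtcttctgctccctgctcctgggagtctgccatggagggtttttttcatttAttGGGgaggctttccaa
Saa3: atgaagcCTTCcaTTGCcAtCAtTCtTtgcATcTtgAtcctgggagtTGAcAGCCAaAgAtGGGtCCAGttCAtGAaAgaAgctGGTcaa
Saa2 differs from Saa1 at 4 and Saa3 at 44 of these 90 positions. Over the whole coding sequence of 369 bases, Saa1 was 95.1% identical to Saa2 and 74.3% identical to Saa3. Of the windows of 50 bases in the Saa1 transcript 13.2% also occur in Saa2, and of the windows of 150 bases, the read length, 0% do. The split between Saa1 and Saa2 is therefore uncertain for a share of short alignments, while their sum does not depend on it: Saa1 and Saa2 added up differed by -2.59 on the log2 scale (SE 0.76, limma adjusted p = 0.0140).

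Orm1 was by far the most abundant of the orosomucoids, and Orm2 showed the largest relative difference of the family. Orm1 (ENSMUSG00000039196, chr4:63344560-63348163, plus strand) ranged from 356 to 471 FPKM with a median of 421 in the PZH group, and from 459 to 1399 FPKM with a median of 822 in the control group. The PZH mice lay close together, and only control mouse 6 at 459 FPKM fell within their range. Orm1 fell by 0.91 on the log2 scale (SE 0.23, limma adjusted p = 0.00637). Orm2 (ENSMUSG00000061540, chr4:63362449-63365878, plus strand) ranged from 5.60 to 8.57 FPKM with a median of 7.39 in the PZH group, and from 9.89 to 91.9 FPKM with a median of 29.1 in the control group. The groups did not overlap. Orm2 fell by 1.81 on the log2 scale (SE 0.40, limma adjusted p = 0.00272), with a median 3.94-fold higher in the control group. Orm3 (ENSMUSG00000028359, chr4:63356162-63359511, plus strand) was the lowest of the 10, at 0.749 to 1.80 FPKM with a median of 1.18 in the PZH group and 0.906 to 2.54 FPKM with a median of 1.93 in the control group. Its groups overlapped in 3 of the 6 control mice, and its difference of -0.33 on the log2 scale (95% interval -0.65 to -0.01) did not pass the adjustment (limma adjusted p = 0.0892). At these levels the added 1 FPKM understates a fold, and the Orm3 difference passed only when control mouse 2 was left out (-0.44, adjusted p = 0.0140).

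The 3 orosomucoid genes lie side by side on chromosome 4 and were compared in the same way, with capitals at the bases that differ from Orm1 at the same position without gaps.
Orm1: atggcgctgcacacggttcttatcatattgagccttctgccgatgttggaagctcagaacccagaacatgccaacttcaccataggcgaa
Orm2: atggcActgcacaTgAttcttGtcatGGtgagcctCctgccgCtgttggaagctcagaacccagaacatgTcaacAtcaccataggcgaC
Orm3: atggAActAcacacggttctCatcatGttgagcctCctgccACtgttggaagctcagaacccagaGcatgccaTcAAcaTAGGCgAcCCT
Orm2 differs from Orm1 at 11 and Orm3 at 21 of the 90 positions. Coding identity to Orm1 was 89.9% for Orm2 and 86.1% for Orm3, and 20.4% of the windows of 50 bases in the Orm1 transcript also occur in Orm2, but 0% of the windows of 150 bases. Orm1 stood far above Orm2 in every mouse, and the split of short alignments between the copies is uncertain here too. The sum of the 3 genes differed by -0.93 on the log2 scale (SE 0.24, limma adjusted p = 0.00615), close to Orm1 alone.

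Lcn2 and Lbp had the smallest adjusted p of the 10 members. Lcn2 (ENSMUSG00000026822, chr2:32384633-32388252, minus strand) ranged from 30.4 to 53.2 FPKM with a median of 45.5 in the PZH group, and from 78.1 to 606 FPKM with a median of 178 in the control group. No PZH mouse reached the lowest control mouse, and control mouse 4 stood 2.71-fold above the next control mouse. Lcn2 fell by 2.06 on the log2 scale (SE 0.38, limma adjusted p = 0.000900). Lbp (ENSMUSG00000016024, chr2:158306493-158332852, plus strand) ranged from 16.5 to 29.3 FPKM with a median of 23.5 in the PZH group, and from 42.7 to 103 FPKM with a median of 55.1 in the control group. Again the groups did not overlap. Lbp fell by 1.31 on the log2 scale (SE 0.20) with a limma adjusted p of 0.000197, the smallest of the 10.

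Hpx and Hp were the most abundant members in both groups. Hp (ENSMUSG00000031722, chr8:109575128-109579172, minus strand) ranged from 582 to 1011 FPKM with a median of 682 in the PZH group, and from 872 to 4387 FPKM with a median of 1458 in the control group. PZH mouse 5 at 1011 FPKM lay above control mouse 2 at 872, and no other pair crossed. Hp fell by 1.21 on the log2 scale (SE 0.32, limma adjusted p = 0.00883). Hpx (ENSMUSG00000030895, chr7:105591613-105600137, minus strand) ranged from 1779 to 2456 FPKM with a median of 2008 in the PZH group, and from 2604 to 5531 FPKM with a median of 3430 in the control group. The groups did not overlap, although the gap between them was narrow. Hpx fell by 0.80 on the log2 scale (SE 0.16, limma adjusted p = 0.00145), the smallest difference among the 8 members that passed.

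The order of the levels changed little at the top and more in the middle. By median FPKM the order was Hpx, Hp, Orm1 and Lcn2 in both groups, and each of these lay above the next of the 4 in every mouse. In the PZH group Lbp, Saa1, Saa3, Orm2, Saa2 and Orm3 followed. There the ranges of Lbp and Saa1 overlapped, as did those of Saa1 and Saa3 and those of Orm2 and Saa2, so these neighbors were not separated beyond their spread. In the control group the order went on with Saa1, Lbp, Saa2, Saa3, Orm2 and Orm3, and every pair of neighbors overlapped except Orm2 and Orm3.

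**Figure D2:**
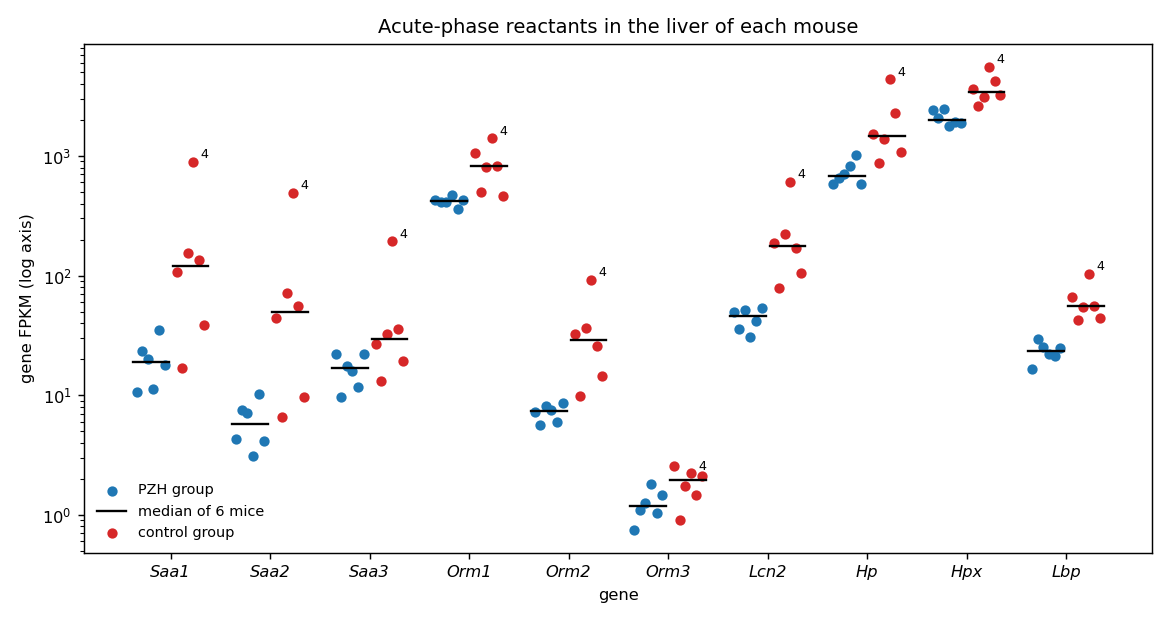
Gene FPKM on a log axis for each of the 10 reactants in each of 6 PZH mice (blue) and 6 control mice (red), with the group median as a bar and control mouse 4 numbered. The groups do not overlap for Orm2, Lcn2, Hpx and Lbp, and control mouse 4 reaches 893 FPKM for Saa1.

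Ratios within the families, and of Hpx to Hp, were chosen after the values were seen and are given without a test. They show how these genes stood to each other in each group. Each is a difference of log2(FPKM + 1), so the added 1 alters it for genes at low FPKM. This weighs most on Orm3, with medians of 1.18 FPKM in the PZH group and 1.93 FPKM in the control group. The size of the Orm3 shift below is therefore uncertain. The mean log2 ratio of Saa2 to Saa1 was -1.53 ± 0.26 with PZH and -1.26 ± 0.35 without (SD, n = 6 mice each, as for the ratios that follow). Saa3 to Saa1 was -0.18 ± 0.99 with PZH and -1.59 ± 0.77 without. Orm2 to Orm1 was -5.69 ± 0.18 with PZH and -4.79 ± 0.55 without, while Orm3 to Orm1 went the other way, at -7.56 ± 0.20 with PZH and -8.14 ± 0.52 without. Outside the families, Hpx to Hp was 1.54 ± 0.43 with PZH and 1.13 ± 0.47 without. The widest shift involved Saa4, whose log2 ratio to Saa1 was 1.84 ± 0.58 with PZH and -1.16 ± 1.54 without.

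The spread between mice was larger in the control group for all 10 reactants. The SD of log2(FPKM + 1) had a median over the members of 0.287 for PZH mice and 0.929 for control mice, and the median ratio was 2.98. Over all genes the 2 medians were 0.183 and 0.154, and the SD was larger in the control group for 41.7% of 14178 genes. An SD at least 2 times larger in the control group was found for 8.81% of genes, and among the members only Orm3, Hpx and Lbp stayed below that. The ratio was 5.05 for Orm2, 4.70 for Orm1, 3.92 for Saa2, 3.24 for Lcn2 and 3.12 for Saa1. It was 2.83 for Saa3, 2.73 for Hp, 1.96 for Hpx, 1.72 for Lbp and 1.38 for Orm3.

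Saa1 and Saa2 had the widest range among control mice. The highest control mouse stood 53.1-fold above the lowest for Saa1 and 74.8-fold for Saa2, where the PZH mice spanned 3.29-fold and 3.299-fold. Without control mouse 4 the control mice spanned 9.11-fold and 10.7-fold. Orm1 was the tightest member in the PZH group, with a coefficient of variation of 8.89% against 41.7% in the control group. For Lcn2 the coefficient of variation was 21.03% against 84.5%, and for Hpx it was 13.7% against 27.98%. Without control mouse 4 the values in the control group were 34.0% for Orm1, 39.2% for Lcn2 and 18.4% for Hpx.

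By the test of spread over all genes none of these differences passed. With limma on the absolute deviation from the group median, 0 of 10 members were called after adjustment, against 0.12% of all genes (0.0493% with the larger spread in the control group), and the lowest adjusted p of a member was 0.871. In simulated data this adjusted test recovered 1% of genes whose control SD was multiplied by 6. The largest ratio of a member was 5.05, so the 0 of 10 carries little weight. At an unadjusted P of 0.05, 2 of 10 were called, Orm1 and Orm2, against 5.51% of all genes in either direction and 2.61% with the larger spread in the control group. In the simulated data that unadjusted threshold recovered 70.5% of the changed genes, and 4.075% of the unchanged genes fell below it. The mean deviation of Orm2 differed by -0.63 (95% interval -1.16 to -0.09), and that of Orm1 by -0.36 (95% interval -0.68 to -0.05). In two-sided exact permutation tests only Orm2 stayed below 0.05 before adjustment (p = 0.0455), and Orm1 gave 0.0736. For Saa1 the difference of -0.86 had a 95% interval of -1.91 to 0.19, which spans a much larger spread in the control group as well as a slightly smaller one.

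Without PZH mouse 1 the SD stayed larger in the control group for 10 of 10 members with the same median ratio of 2.98, and the ratio of Lbp went from 1.72 to 2.65. Much of the spread lay in control mouse 4. Without it the ratio of the SDs had a median of 1.86, it stayed above 1 for 9 of 10 members, and that of Lbp was 0.95. The SD of Saa3 in the control group went from 1.31 to 0.56 without this mouse, close to the 0.46 of the PZH group. Those of Orm1 (0.62 to 0.51) and Orm2 (1.08 to 0.77) stayed well above their 0.13 and 0.21 in the PZH group. For Saa1 the coefficient of variation in the control group was 149% with and 66.3% without control mouse 4, against 45.7% in the PZH group. The level calls did not rest on this mouse: 8 of 10 members were called without it, and Saa1 fell by 1.85 (limma adjusted p = 0.0147).

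**Figure D3:**
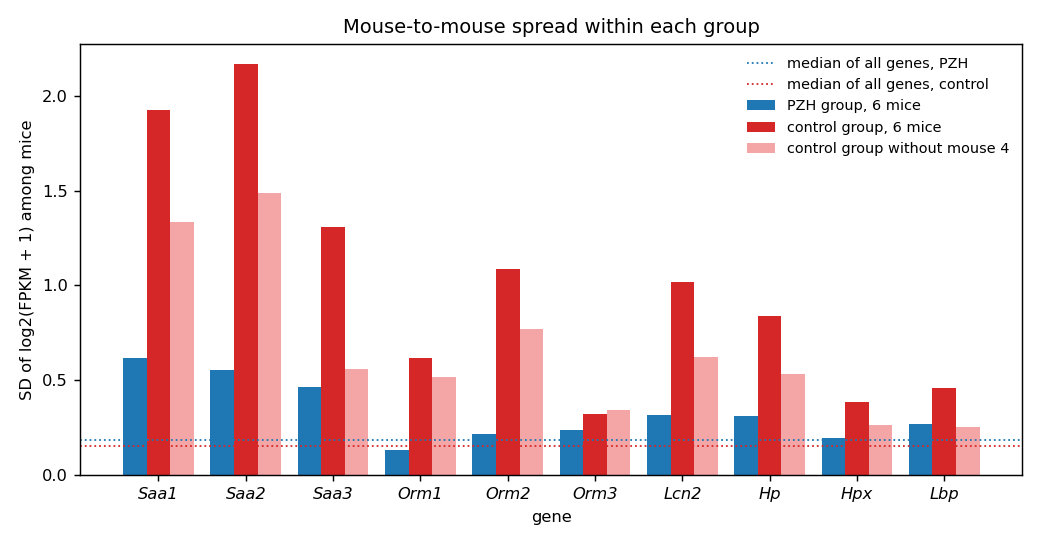
SD of log2(FPKM + 1) among mice (y axis) for each reactant in the PZH group (blue), the control group (red) and the control group without mouse 4 (pale red), with dotted lines at the medians of all genes (0.183 and 0.154). The red bar is higher than the blue bar for all 10 genes, and the pale bar is slightly below the blue bar for Lbp.

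The same control mice were high or low across the members. Control mouse 4 was the highest control mouse for 9 of 10 members, the exception being Orm3, which was highest in control mouse 1. Over 10948 genes with a mean of at least 1 FPKM control mouse 4 was the highest for 19.9%. It stood above the next control mouse by 6.97-fold for Saa2, 5.83-fold for Saa1, 5.42-fold for Saa3, 2.50-fold for Orm2 and 1.91-fold for Hp, but only by 1.56-fold for Lbp, 1.33-fold for Orm1 and 1.301-fold for Hpx. Control mouse 2 was the lowest control mouse for 9 of 10 members, against 19.3% of those genes, and the exception was Orm1, lowest in control mouse 6. In the PZH group no mouse was highest for more than 3 members.

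**Figure D4:**
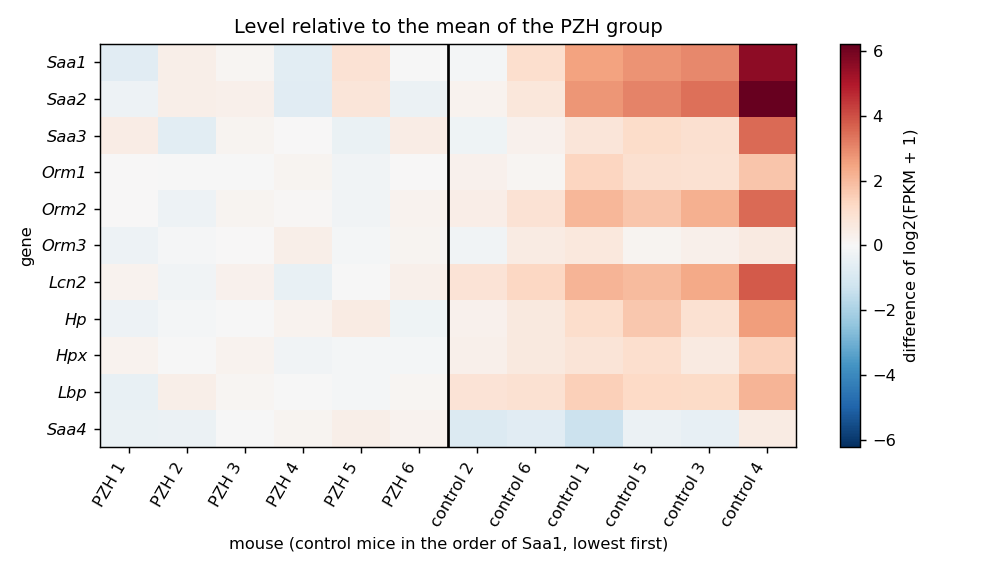
Level of each reactant and of Saa4 (rows) in each mouse (columns), as the difference of log2(FPKM + 1) from the mean of the PZH group, with control mice ordered by Saa1. Control mouse 4 is the darkest column and is highest for 9 of the 10 members, and control mouse 2 is the palest control column.

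Saa1 was taken as the reference to describe how the members moved together within a group. In the control group Pearson's r of Saa1 with the other 9 members ranged from 0.563 for Orm3 to 0.992 for Saa2, with a median of 0.942. By two-sided exact permutation over the 720 orders, with adjustment over 18 relations, 8 of these 9 passed (for Lcn2 r = 0.989, adjusted permutation p = 0.0167). By Spearman's rho 0 of 9 passed and 4 of 9 were below 0.05 before adjustment (median rho 0.829). For Saa2 rho was 1, and its permutation p of 0.00278 became 0.05 after adjustment, which is not below the threshold. With 6 mice a single perfect rank order could thus not pass, so the 0 of 9 carries little weight. Without control mice 2 and 4, the farthest from the median of Saa1, the median r was 0.836 and the range was -0.436 for Orm3 to 0.999 for Saa2. For Hpx r went from 0.901 to 0.346, so that relation rested on those mice.

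In the PZH group the median r of Saa1 with the other members was -0.130. Saa2 had r = 0.910 (rho = 0.829) and Orm1 had r = -0.875 (rho = -0.829), both with an adjusted permutation p of 0.0375 by Pearson and 0.150 by Spearman over 6 mice. Without PZH mice 1 and 5 these values were 0.916 and -0.988. Lcn2, which followed Saa1 closely among control mice, had r = 0.05 among PZH mice. The difference between the groups in these correlations was not tested.

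**Figure D5:**
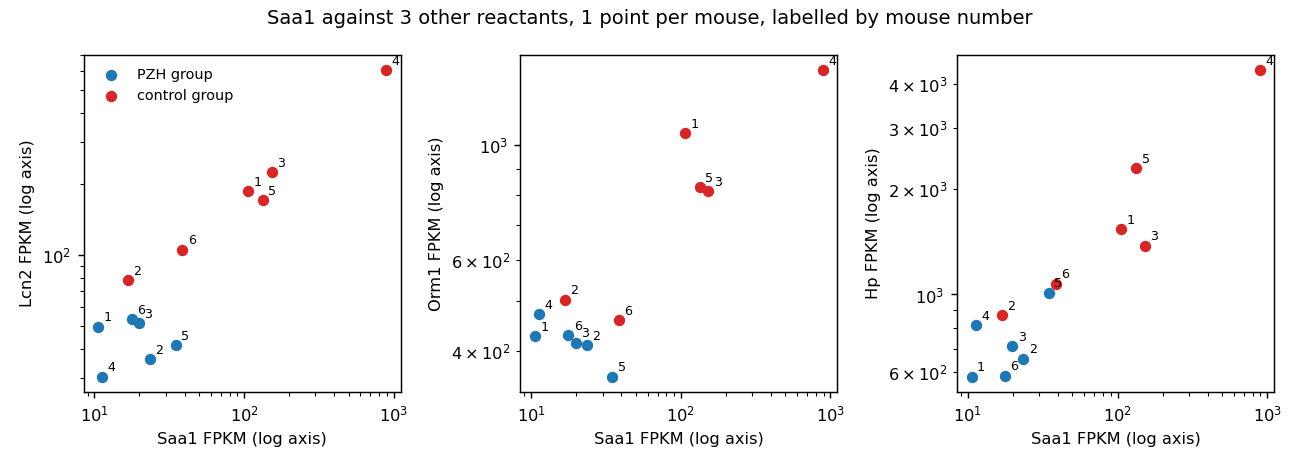
Saa1 FPKM (x axis) against Lcn2, Orm1 and Hp FPKM (y axes), all on log axes, with 1 point per mouse labeled by its number (PZH blue, control red). The control mice run from mouse 2 at the lower left to mouse 4 at the upper right in the Lcn2 panel (r = 0.989), and Orm1 in the PZH mice runs the other way (r = -0.875).

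Most of the FPKM of each gene came from 1 or 2 transcripts. Of the 16 transcripts 10 were called lower in the PZH group by limma over all 29883 transcripts with adjustment, against 14% of all transcripts (19.7% in either direction). The count was 5 with a median-ratio scale factor, where 2490 of 29883 transcripts were called lower. The calls of the Saa1, Saa2, Orm1, Hp and minor Lcn2 transcripts were lost there. The Saa1 and Saa2 transcripts also lost theirs with the mouse number as a block, without variance moderation and without most single mice. Saa1, Hp, Hpx and the orosomucoids have 1 listed transcript each. For Saa2, ENSMUST00000210769 held 73.2% of the gene's FPKM over the 12 mice and ENSMUST00000075982 held 26.4%, and they differed by -2.64 (SE 0.82, limma adjusted p = 0.0408) and -2.55 (SE 0.84, adjusted p = 0.0520). The third Saa2 transcript was listed at 0 in 10 of 12 mice. ENSMUST00000050785 held 98.9% of Lcn2, ENSMUST00000016168 held 97.6% of Lbp and ENSMUST00000006956 held 99.7% of Saa3. The minor Lcn2 transcript ENSMUST00000192241, which starts upstream, also fell, by 0.96 (SE 0.27, limma adjusted p = 0.0270), as did the minor Lbp transcript ENSMUST00000129811 with 0.766% of the gene, by 0.35 (SE 0.08, limma adjusted p = 0.00754).

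RefSeq (GRCm38.p6) gave the 250 bases before the start for 7 of the 10 members, and those of Saa1, Saa2 and Orm2 are shown because they held a match to the C/EBP pattern TTNNGNAAT on either strand. The match is in capitals, and the Saa2 window is shown only up to the start of its longest listed transcript, without its last 43 bases.
Saa1 chr7:46742981-46743230, minus strand: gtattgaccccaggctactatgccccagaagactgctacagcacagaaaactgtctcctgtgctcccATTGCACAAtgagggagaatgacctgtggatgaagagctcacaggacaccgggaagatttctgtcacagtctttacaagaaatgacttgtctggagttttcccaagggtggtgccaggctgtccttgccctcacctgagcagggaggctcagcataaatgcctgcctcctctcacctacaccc
Saa2 chr7:46751583-46751789, plus strand: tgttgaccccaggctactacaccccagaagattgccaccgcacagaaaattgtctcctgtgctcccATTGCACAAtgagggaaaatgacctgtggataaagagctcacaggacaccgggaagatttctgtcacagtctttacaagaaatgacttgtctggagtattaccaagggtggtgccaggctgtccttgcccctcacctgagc
Orm2 chr4:63362199-63362448, plus strand: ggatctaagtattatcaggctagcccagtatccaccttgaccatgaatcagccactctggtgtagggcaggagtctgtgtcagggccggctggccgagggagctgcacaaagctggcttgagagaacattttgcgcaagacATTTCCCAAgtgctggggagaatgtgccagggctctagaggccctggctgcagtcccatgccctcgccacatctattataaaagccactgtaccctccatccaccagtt
The windows of Saa1 and Saa2 were 94.8% identical and carry the match at bases -183 and -184, and that of Orm2 lies at base -109. For Saa2 this position is counted from the RefSeq start, which is that of ENSMUST00000075982, while ENSMUST00000210769, the transcript with the larger share of Saa2, starts upstream of it at base 46751790. The pattern occurred in 10.2% of all 32851 promoter windows of this length. The STAT pattern TTCNNNGAA and the NF-kB consensus, also searched on both strands, had no match in the 7 windows, against 7.02% and 7.25% of all windows. Like that of Saa2, the windows of Saa3, Lcn2 and Hpx are counted from the RefSeq start and overlap a listed transcript of the gene. Fewer than 250 bases of these windows lie upstream of that transcript. The windows of Orm2 and Orm3 were 85.5% identical.

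Most of the other positive acute-phase genes also fell. Of 27 listed, 26 were in the table, and 21 fell, 0 rose and 5 did not pass, with a median difference of -0.81 on the log2 scale, against 32.1% of all genes called lower. With a median-ratio scale factor per mouse 15 fell and 1, Saa4, rose, where 2739 of 14188 genes were called lower and 2807 higher. Mt2 and Mt1, the metallothioneins that bind zinc, differed by -3.33 (SE 0.38) and -2.88 (SE 0.36), Cd14 by -2.73 (SE 0.32) and Lrg1 by -2.25 (SE 0.26), all past the adjusted limma threshold. Those that did not pass were Saa4, Crp, Spp1, Cfb and C4b. Among 12 negative acute-phase genes 6 rose, 0 fell and 6 did not pass (median 0.30), against 12.7% of all genes called higher. Serpina6, the corticosteroid-binding globulin gene, rose by 2.51 (SE 0.37), Alb by 0.68 (SE 0.12), Ttr (transthyretin) by 0.68 (SE 0.15) and Rbp4 (retinol carrier) by 0.36 (SE 0.11).

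Of 25 measured inducing signals and regulators, 16 fell, 3 rose and 6 did not pass (median -0.60), and the 3 that rose are about the share of all genes called higher (12.7%). The cytokine Il1b differed by -1.55 (SE 0.27), the oncostatin M receptor gene Osmr by -1.33 (SE 0.18), the C/EBP factor gene Cebpb by -1.20 (SE 0.19) and the STAT3 feedback inhibitor gene Socs3 by -1.04 (SE 0.33). Cebpa, Cebpe and Il1rap were the 3 that rose, and Il6 and Osm were not analysed here. Control mouse 4 was the highest control mouse for each of Il1b, Osmr, Cebpb and Socs3. Of 13 measured receptors and partners of the members, 6 fell and 7 did not pass (median -0.35), a count not far above the 32.1% of all genes called lower. Among those that fell were Cd14, to which LBP delivers lipopolysaccharide, the formyl peptide receptor genes Fpr2 (-1.45, SE 0.26), a receptor for SAA, and Fpr1 (-0.75, SE 0.17), and Hmox1, which degrades heme (-1.07, SE 0.14). Cd163, the haptoglobin-hemoglobin receptor gene, differed by 0.15 (limma adjusted p = 0.539), and Lrp1, the hemopexin-heme receptor gene, by 0.11 (adjusted p = 0.590).

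Markers of other cell types were measured beside the members, and their part in the results was not tested. Over all genes 32.1% were called lower and 12.7% higher, so the neutrophil, macrophage and cholangiocyte counts say little on their own. Of 12 neutrophil markers 2 fell, Cxcr2 and Csf3r, and 10 did not pass. Their summed FPKM was 15.2 to 178 in the PZH group and 20.2 to 67.1 in the control group, and Ly6g was listed at 0 in 2 mice. Lcn2 is also expressed by neutrophils: its level was 51.2 FPKM in PZH mouse 3, which had the highest neutrophil sum of the PZH mice (178 FPKM), and 606 FPKM in control mouse 4, which had the highest of the control mice (67.1 FPKM). Of 10 macrophage and Kupffer cell markers 2 fell (Marco by 2.21, Cd68 by 0.32), 2 rose (Clec4f, Vsig4) and 6 did not pass. With a median-ratio scale factor 1 fell and 5 rose, where 2739 of 14188 genes were called lower and 2807 higher. The sums of the 10 markers, without that factor, were 398 to 605 FPKM in the PZH group and 405 to 516 FPKM in the control group. Of 5 cholangiocyte markers 1 fell, Sox9, by 1.64, and their sums were 66.9 to 133 FPKM in the PZH group and 96.9 to 161 FPKM in the control group.

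Of 8 hepatocyte markers 4 rose, Cps1, Alb, Ttr and Asgr1, and 0 fell, against 12.7% of all genes called higher. With a median-ratio scale factor 7 rose, where 2807 of 14188 genes were called higher. The 8 markers had a summed FPKM of 43062 to 60018 in the PZH group and 25123 to 38779 in the control group. Alb and Ttr also count among the negative acute-phase genes. None of 2 measured adipocyte markers and 4 blood markers passed the adjusted limma test, nor did any at an unadjusted P of 0.05. The adipocyte sums were 0 to 0.274 FPKM in the PZH group and 0.0278 to 3.03 FPKM in the control group, and the hemoglobin sums 530 to 1221 and 741 to 1122 FPKM. Among control mice, mouse 4 had the highest neutrophil (67.1 FPKM), cholangiocyte (161 FPKM) and adipocyte (3.03 FPKM) sums and the lowest hepatocyte (25123 FPKM) and hemoglobin (741 FPKM) sums. The neutrophil, cholangiocyte and hepatocyte sums follow their most abundant markers, in this mouse S100a8 (30.6 FPKM), Spp1 (142 FPKM) and Alb (18015 FPKM). Some other markers of these lists did not go the same way. Counted from the lowest of 6 control mice, mouse 4 ranked 3 for Krt7 and 4 for Epcam. It was the lowest for Ngp and the highest for Apob. A change in cell types in this mouse was not tested.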

How the data were processed

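Liver RNA of 6 PZH and 6 control mice was sequenced as strand-specific libraries after rRNA removal. Per the study's methods and processing notes, reads were trimmed with Trimmomatic, mapped to GRCm38 with HISAT2 2.1.0 and assembled with StringTie 1.3.5 and Ensembl release 95. The authors deposited FPKM per transcript and mouse on a linear scale, already scaled to length and library size. Counts could not be recovered, because no more than 15.69% of low values in any mouse lay within 0.3% of a whole number of fragments, where their spacing alone gives up to 3.78%, so no counting interval is given. The lncRNA table was not used here.

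Gene FPKM were summed over transcripts with GENCODE M21, which held 29876 of 29883 transcripts. Levels were compared on log2(FPKM + 1) with limma 3.58.1 (R 4.3.3) over all genes without a filter, and spread with limma on absolute deviations from the group median. The methods do not name a test. Single values were compared by two-sided exact permutation over all labellings of the 12 mice (smallest possible p 0.0022). Each mouse was taken as 1 replicate. The procedures were tested on simulated data, where the level test recovered most changes put in and the adjusted spread test recovered few, so its lack of calls carries little weight. The level changes were 1.5 on the log2 scale, in genes drawn from the whole table with equal noise in both groups. That recovery does not carry over to members with a wide or unequal spread. The permutation tests, sequences and plots were done in Python 3.11.15 (scipy 1.17.1, numpy 2.4.6, pandas 2.3.3, biopython 1.88, matplotlib 3.10.9).

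The members, gene lists, ratios and rules were chosen with earlier results of these data known. The genes named are all members, the 4 genes of each list with the largest difference past the threshold, the genes most like Saa1 + Saa2 and Lcn2, and defining markers. Receptors without a call, genes that rose among the regulators and list genes that did not pass were named after their values were seen. The alternatives tried were 0.1 as the pseudocount, a filter at a mean of 1 FPKM, scaling by a median-ratio factor or to equal sums, other variance moderation, added-up gene copies, deviations from the mean, a block by mouse number, and leaving out single mice.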

Additional observations from a re-analysis of the deposited data

Results flagged for a closer look

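In the control group, 1 mouse lay far from the other 5 for 5 members, and in each case it was control mouse 4, the highest. The gap between this mouse and the next, as a share of the whole range of the 6 control mice, was 0.844 for Saa1 FPKM, 0.868 for Saa2, 0.875 for Saa3, 0.673 for Orm2 and 0.724 for Lcn2, each above Dixon's 95% critical value for 6 samples. In all, 20 groups of 6 mice were examined and 5 had such a gap, where chance gives about 1 in 20. The 5 are not separate pieces of evidence, because the same mouse is behind each of them. On the log2(FPKM + 1) scale only Saa3 kept a gap above that value (0.637), and the gaps of the other 4 were between 0.420 and 0.488. No member had such a gap in the PZH group. Over all genes, the mean correlation of PZH mouse 1 with the other PZH mice lay below theirs with a gap of 0.684 of the range, past the same critical value.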

How the results depend on the processing

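All level differences of the members were negative in 195 of 195 values over 20 alternatives, and the number called was 8 to 10 with 1 mouse left out, 10 arising without control mouse 2. It was 9 by exact permutation without adjustment and 6 by the study's criteria. The spread was larger in the control group in 203 of 205 values over 21 alternatives. With 1 mouse left out the mean deviation (PZH minus control) ran from -0.188 to 0.00618 for Lbp, positive without control mouse 4, and from -0.115 to 0.0264 for Orm3, positive without control mouse 2. The number of members called for spread was 0 with any 1 mouse left out and 1 by exact permutation without adjustment. The number of transcripts called went from 10 to 5 with a median-ratio scale factor, and was 7 to 12 with 1 mouse left out, so the Saa1, Saa2, Orm1, Hp and minor Lcn2 transcripts sit near the threshold. That factor moved the median of all genes from -0.11 to -0.001, the genes called from 1798 higher and 4560 lower to 2807 and 2739, and the hepatocyte markers that rose from 4 to 7 and macrophage markers that rose from 2 to 5, while 8 members stayed called. Genes called by the study's criteria went from 570 to 1317 with a pseudocount of 0.1. Genes called for spread were 17, and 0 with a mean-variance trend, 7 with the block, 49 with deviations from the mean and 3 to 11 with 1 mouse left out. Mouse numbers did not pair the groups (r of deviations -0.07 to 0.08, 0 of 6 above 0.1, 1 of 6 best with its own number). With the mouse number as a replicate block 8 members, 0 spreads and 8 transcripts were called, and 5982 genes instead of 6358. The causes of these shifts were not tested. Depth is known only from FPKM steps, and Orm3 near 1 FPKM is the least certain value.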

Other observations

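Beside the members, the genes whose mouse-to-mouse variation was most like that of Saa1 and Saa2 added up were sought among 10938 genes with a mean of at least 1 FPKM, by Pearson's r of log2(FPKM + 1) over the 12 mice after the group means were taken out. They were Atp11a (r = 0.909), Itih4 (0.905), Mkrn1 (0.898), Tmem176b (0.890), Scara5 (0.872), Ube2s (0.868), Cxcl13 (0.861), Ccnd3 (0.859), Gfpt2 (0.858) and Zfp36 (0.851). For Lcn2 they were Tmem176b (0.943), Mkrn1 (0.941), Cxcl13 (0.905), Serpina3n (0.894) and Cfb (0.868). For each of these genes control mouse 4 was the highest control mouse, and that mouse enters each of these values of likeness. Among the members the same measure against Saa1 and Saa2 ran from 0.383 for Orm3 to 0.912 for Lcn2. Likeness in variation did not go with a difference in level for all of them: Cfb, the complement factor B gene, had a mean of 344 FPKM ± 12.5 for PZH mice and 367 ± 88.9 for control mice (SD, n = 6 mice; difference -0.06 on the log2 scale, limma adjusted p = 0.702). Mkrn1 had 5.85 ± 0.252 and 6.19 ± 1.06 (limma adjusted p = 0.648). Within the control group alone, r with Saa1 + Saa2 ran from 0.867 (Gfpt2) to 0.985 (Itih4). Within the PZH group it ran from 0.038 (Mkrn1) to 0.817 (Scara5). For Lcn2 it ran from 0.883 (Cfb) to 0.952 (Cxcl13) in the control group and from 0.259 (Serpina3n) to 0.956 (Mkrn1) in the PZH group. For several of these genes the likeness over 12 mice was mostly that of the control mice. The measure itself favors this, because the SD of log2(FPKM + 1) of Saa1 + Saa2 was 2.01 in the control group and 0.612 in the PZH group. Cxcl13 (mean 0.353 FPKM in the PZH group) and Gfpt2 (0.570 FPKM) reached the mean of 1 FPKM only through the control group. All the genes found by likeness are named as a description of the 12 livers, with no test of the likeness.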
